A study of Homo sapiens with 24 samples.

Results

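The control-transfected libraries of A375 cells were set against those labelled SKBR3, gene by gene. Genes were chosen by their level alone: those with a mean of at least 1 TPM over the 6 libraries, which 15870 of the 60504 genes in the table met. TPM is the abundance of a transcript corrected for its length and scaled to the same total in each library. The rule used the mean over both groups and not the difference between them. The gene just inside this limit had a mean of 1.00 TPM and the gene just outside it 0.998 TPM, with 286 genes between 1 TPM and 0.1 TPM above it and 297 in the 0.1 TPM below it.

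The series measured RNA in 3 human cancer cell lines after transfection with small interfering RNA (siRNA) against GCDH, an enzyme of lysine and tryptophan breakdown, or with control siRNA. Both groups compared here received the control siRNA (siControl) and were collected 48 hours later, with no other allele or agent named in the labels. The first group is 3 libraries of A375, a melanoma line, from its batch 2. The second is 3 libraries labelled SKBR3, given as a breast cancer line. Cells were grown in triplicate wells, so that the p-values measure the spread between wells, which may be technical. Both groups were made with the same poly(A) selection and directional kit, whereas A375 batch 1 was made with a 3' tag kit and was not used here. No label names separate cultures of a line, and a difference of line cannot be told apart from any difference in how the 2 cultures were grown or handled.

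A375 is known as a dedifferentiated melanoma line with an activated BRAF kinase. Melanocytes arise from the neural crest under the transcription factors SOX10, PAX3 and MITF, and MITF drives the pigment genes TYR, DCT, PMEL and MLANA. SKBR3 is known as a luminal breast line in which the receptor gene ERBB2 is amplified, so that ERBB2 and its neighbours, with keratins such as KRT19 and the adhesion protein EPCAM, are usually its abundant transcripts. Lines of unlike origin differ in lineage factors and in HOX genes, which record position along the body axis. They can also differ in genes that are normally limited to the germ line and in programs driven by their oncogenes.

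The labelled identity was examined first. ERBB2 (ENSG00000141736, chromosome 17, 39687914 to 39730426 of GRCh38) had 24.8, 23.7 and 28.01 TPM in the 3 libraries labelled SKBR3. The A375 libraries had 34.5, 32.7 and 31.1 TPM, all above those labelled SKBR3. Differences are A375 minus SKBR3 on the log2(TPM + 1) scale, which understates the change of low genes, and that of ERBB2 was 0.35 (SE 0.08, limma adjusted p = 0.0053). A gene was called where the limma adjusted p was under 0.05 and the difference was at least 1 in size, so ERBB2 was not called. KRT19, a keratin of simple epithelia, was at 0.68, 0 and 0 TPM in the libraries labelled SKBR3. GRHL2, a transcription factor of epithelial cells, was at 0, 0.02 and 0.5 TPM there. EPCAM was at 2.42, 1.28 and 2.0 TPM there and at 0.42, 0.23 and 0.27 TPM in A375, a call (-1.13) that was lost with a pseudocount of 5 (-0.38). Of the 10 tested genes of the ERBB2 amplicon list, 0 were higher in A375, 2 were higher in the libraries labelled SKBR3 and 8 were not called, with a median difference of -0.04. Over all tested genes 16.5% were called toward A375 and 18.2% toward the libraries labelled SKBR3, with a median of -0.10, and the lists below are to be read against these shares. A member under 1 TPM in a group passed the filter only through the other group, which largely fixed its direction. The number of such members is given beside the lists it bears on most. The defining markers of a luminal, ERBB2-amplified line were thus low or at 0, against the label, and the group is called by its label only.

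A375 carried the markers of its neural crest origin but not of pigmentation. SOX10 (chromosome 22) was at 440, 465 and 466 TPM in A375 and listed at 0 in all 3 libraries labelled SKBR3. S100B, a calcium-binding protein used as a melanoma marker, was at 111, 117 and 116 TPM against 0, 0 and 0.16 TPM. MITF was at 12.2, 11.4 and 11.2 TPM against 5.63, 5.40 and 5.47 TPM, a difference of 0.95 that was under the fold limit. The pigment genes were near 0 in both groups, and in bulk libraries fewer expressing cells and less RNA per cell cannot be told apart. TYR was listed at 0 in all 6 libraries, MLANA averaged 0.337 TPM in A375, and PMEL had 0.96 ± 0.555 TPM in A375 and 3.49 ± 0.336 TPM in the libraries labelled SKBR3 (SD, n = 3). Of 16 tested melanocyte genes, 10 were higher in A375, among them ERBB3, and 3 were higher in the libraries labelled SKBR3, where 4 of the 16 were under 1 TPM, as were 3 of the 16 in A375. The 3 were PMEL (-1.23, and -0.51 and not called with a pseudocount of 5), KIT, the receptor of stem cell factor, and GPM6B, a membrane glycoprotein gene. PAX3 was at 7.75 ± 1.87 TPM in A375 and 7.77 ± 1.75 TPM in the libraries labelled SKBR3 (SD, n = 3), and the interval of the difference was -0.51 to 0.49.

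**Figure D1:**
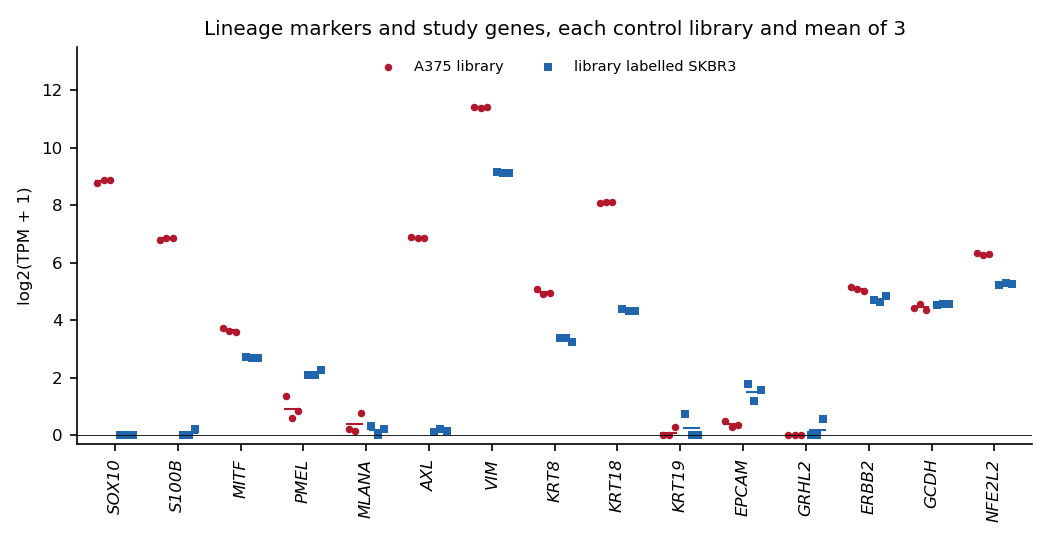
Values of 15 lineage markers and study genes in each control library as log2(TPM + 1), A375 as circles and libraries labelled SKBR3 as squares, with a bar at the mean of 3. SOX10, S100B and AXL separate the groups by over 6 units, whereas ERBB2, GCDH and MITF differ by less than 1 unit and KRT19 and GRHL2 lie near 0 in both.

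GCDH, the gene targeted elsewhere in the series, was not called between the control groups. A375 had 20.7, 22.7 and 19.3 TPM and the libraries labelled SKBR3 22.0, 22.7 and 22.8 TPM, so that the ranges overlapped. The difference was -0.10 (95% interval -0.28 to 0.07, limma adjusted p = 0.232). By an exact permutation test, two-sided, p was 0.3, where 3 against 3 libraries allow 0.1 at the lowest. NFE2L2, which encodes the transcription factor NRF2, was at 79.4, 76.3 and 77.5 TPM in A375 and 36.6, 38.2 and 37.1 TPM in the libraries labelled SKBR3. Its difference of 1.04 (SE 0.04, limma adjusted p = 1.17e-06) stood just above the fold limit and fell to 0.99 with median scaling, 0.99 with quantile normalization and 0.97 with a pseudocount of 5.

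The 2 groups were far apart across the transcriptome. Log2 values correlated at 0.980 between A375 libraries, 0.982 to 0.984 between libraries labelled SKBR3 and 0.766 to 0.769 between the groups, as a description across genes. Within a library, 14917 to 15181 genes reached 1 TPM, mitochondrially encoded transcripts took 1.86% to 2.12% of TPM, and the 10 most abundant genes took 6.25% to 6.60%. Of 15870 genes, 5502 (34.7%) were called, 2616 (16.5%) higher in A375 and 2886 (18.2%) higher in the libraries labelled SKBR3. At the adjusted p alone, 11914 genes (75.1%) passed. The median difference over all tested genes was -0.10. The values of the groups did not overlap in 77.4% of tested genes, and in 2610 of the 2616 and 2869 of the 2886. At differences of at least 4 the larger number was toward A375: 304 genes were that much higher there, against 100 in the libraries labelled SKBR3. More genes were called toward the libraries labelled SKBR3 than toward A375, but the order turned with a filter at 5 TPM (1757 toward A375 and 1720), a pseudocount of 5 (1659 and 1499) and the test against the fold limit (1934 and 1847).

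**Figure D2:**
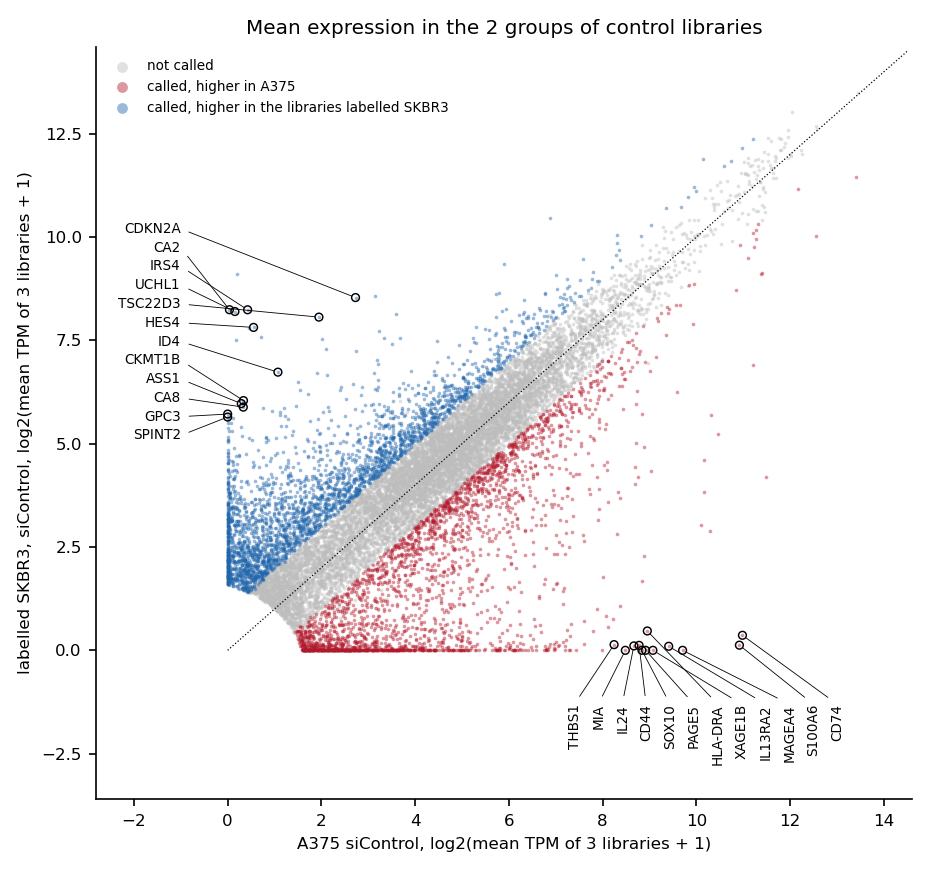
Mean level of each tested gene in A375 (horizontal) and in the libraries labelled SKBR3 (vertical), as log2(mean TPM + 1), 1 point a gene. Coloured points were called, and the 12 genes with the largest difference in each direction are circled and named: those of A375 lie close to 0 on the vertical axis.

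The 12 largest differences toward A375 were led by S100A6 and CD74. S100A6, a calcium-binding protein gene, was at 2030, 1997 and 1774 TPM in A375 and 0.27, 0 and 0 TPM in the libraries labelled SKBR3 (difference 10.80, SE 0.11). CD74, the invariant chain that escorts MHC class II molecules, was at 2036, 2001 and 2032 TPM against 0.31, 0.30 and 0.25 TPM (10.62, SE 0.04). CD44, the hyaluronan receptor, was at 414, 451 and 448 TPM against 0.23, 0 and 0.03 TPM. These 3 abundant transcripts of A375 were under 0.5 TPM in every library labelled SKBR3. IL13RA2, a decoy receptor of interleukin 13, averaged 679 TPM, the cytokine gene IL24 405 TPM and the matrix glycoprotein gene THBS1 302 TPM in A375, each with at most 0.1 TPM as the mean in the libraries labelled SKBR3. MIA, a secreted protein named for its inhibition of melanoma cells, was at 374, 357 and 340 TPM and listed at 0 in all 3 libraries labelled SKBR3. The others of the 12 were SOX10, HLA-DRA and the germ line antigens MAGEA4, XAGE1B and PAGE5. The 12 were picked by size and for no overlap between groups, and their values are a description.

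The 12 largest toward the libraries labelled SKBR3, picked in the same way, were led by CA2 and UCHL1. CA2, a carbonic anhydrase (chromosome 8), was at 319, 301 and 286 TPM there and 0, 0 and 0.08 TPM in A375 (difference -8.20, SE 0.07). UCHL1, a ubiquitin hydrolase abundant in neurons, was at 287, 290.0 and 301 TPM against 0, 0 and 0.34 TPM (-8.06, SE 0.12). IRS4, an adaptor of insulin and growth factor receptors on the X chromosome, was at 303, 301 and 299.6 TPM against 0.42, 0.18 and 0.43 TPM (-7.82, SE 0.09). Each of the 3 was under 0.5 TPM in every A375 library. HES4, a basic helix-loop-helix repressor of the Notch-linked HES family, averaged 224 TPM against 0.467 TPM. TSC22D3, a glucocorticoid-induced transcription regulator, averaged 266 TPM against 2.86 TPM. ASS1, which makes argininosuccinate in arginine synthesis, averaged 61.7 TPM against 0.223 TPM, and ID4, an inhibitor of helix-loop-helix factors, 105 TPM against 1.1 TPM. GPC3, a cell surface proteoglycan, and SPINT2, a serine protease inhibitor, averaged 51.6 and 49.1 TPM and were listed at 0 in all A375 libraries. CA8 averaged 58.1 TPM, CDKN2A 370 TPM and CKMT1B, a mitochondrial creatine kinase, 65.0 TPM. CKMT1B has a near-identical copy, CKMT1A, between which RSEM divides reads, so that its own level is uncertain.

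Some genes were read in 1 group alone, here at least 5 TPM in every library of a group and under 0.1 TPM in every library of the other. There were 255 such genes in A375, 210 of them listed at 0 in every library labelled SKBR3, and 114 in the libraries labelled SKBR3, 79 of them at 0 in every A375 library. The X chromosome held 44 of the 255 (17.3%) and 12 of the 114 (10.5%), against 3.53% of all tested genes. Some members were named after their values were seen. In A375 these were SERPINA3, alpha-1-antichymotrypsin (252 TPM), CD96, a receptor of T and natural killer cells (170.5 TPM), and SNRPN, an imprinted splicing gene (123 TPM). In the libraries labelled SKBR3 they were TBX1, a T-box factor (44.3 TPM), and CDX2, a homeobox factor of the gut (26.6 TPM). Of the 255 and 114, 173 and 65 met the same rule in the siGCDH libraries of the 2 lines.

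Cancer-testis antigens, proteins of the germ line that tumours can switch on, gave the list with the largest median. Of 30 such genes in the table, 19 were tested, all 19 were higher in A375, and the median difference was 6.79. The list summed to 3062 to 3095 TPM in the A375 libraries and 25.9 to 28.2 TPM in those labelled SKBR3. MAGEA4 was at 840, 862 and 800 TPM in A375 and listed at 0 in the other 3 libraries. XAGE1B averaged 537 TPM, PAGE5 482 TPM and CTAG1B, which encodes the NY-ESO-1 antigen, 112 TPM. PRAME, a repressor of retinoic acid signalling, was the member read in both, at 99.7 ± 4.29 and 25.2 ± 1.11 TPM (SD, n = 3). Many members have near-identical copies on the X chromosome, so their single levels are uncertain, while the list's sum is less affected. In the libraries labelled SKBR3 18 of the 19 were under 1 TPM, so the count was largely fixed by the filter.

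MHC class II molecules present peptides to CD4+ T cells. Their genes are usually on in antigen-presenting cells and are switched on together by the coactivator CIITA, which is recruited by factors bound to the W, X and Y boxes of their promoters. All 11 genes of the class II list passed the filter, 10 were higher in A375, and HLA-DQB1 was not called. In the libraries labelled SKBR3 5 of the 11 were under 1 TPM. CIITA itself was at 25.2, 20.9 and 22.2 TPM in A375 and 0.22, 0.22 and 0.03 TPM in the libraries labelled SKBR3 (difference 4.36, SE 0.12, limma adjusted p = 1.88e-07). HLA-DRA, the alpha chain of HLA-DR, was at 487, 500.1 and 496 TPM against 0.30, 0.39 and 0.46 TPM (8.49, SE 0.06). HLA-DPA1 was at 332, 337 and 326 TPM against 12.1, 12.8 and 11.03 TPM (4.69, SE 0.06). The groups did not overlap for these 3 genes, as for 77.4% of all tested genes. HLA-DMA and HLA-DMB, which load peptides, differed by 3.69 and 1.99, and CTSS, the protease that trims the invariant chain, by 3.70. HLA-DQB1 was at 29.7, 28.3 and 23.9 TPM against 18.5, 13.8 and 17.7 TPM (0.69, SE 0.13). HLA genes are highly variable between people and reads were assigned by one reference, so the levels of single HLA genes are uncertain. Antigen-presenting blood cells carry the same transcripts. Of the 18 blood cell markers, 11 were under 1 TPM in A375, and the pan-leukocyte gene PTPRC was listed at 0 in both groups. The list summed to 2531 to 2560 TPM in A375 and 15.0 to 15.9 TPM in the libraries labelled SKBR3, and CD74 and HLA-DRA held nearly all of the A375 sum.

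Promoter stretches of 3 class II genes and B2M are shown because class II genes are known to share their promoter boxes with each other and with B2M. They run from 150 to 31 bases before the start of the gene in RefSeq (GRCh38.p14), 5' to 3' on the gene's strand. Capitals mark CTGATTGG, letters of the Y box, and CTGATGATG, letters in the X box stretch of HLA-DRB1, both chosen after values were seen. The motifs part after their first 5 letters and so never mark the same bases of a strand.
HLA-DRB1 (chr6:32589879-32589998, minus strand): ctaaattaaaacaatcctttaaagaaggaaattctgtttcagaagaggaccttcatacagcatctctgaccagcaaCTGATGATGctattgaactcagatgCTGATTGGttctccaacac
HLA-DMA (chr6:32953128-32953247, minus strand): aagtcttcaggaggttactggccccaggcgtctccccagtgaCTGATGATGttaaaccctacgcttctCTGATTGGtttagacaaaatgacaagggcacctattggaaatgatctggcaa
HLA-DQB1 (chr6:32666688-32666807, minus strand): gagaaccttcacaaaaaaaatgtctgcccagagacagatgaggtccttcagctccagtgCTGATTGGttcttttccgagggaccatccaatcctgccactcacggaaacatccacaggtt
B2M (chr15:44711367-44711486, plus strand): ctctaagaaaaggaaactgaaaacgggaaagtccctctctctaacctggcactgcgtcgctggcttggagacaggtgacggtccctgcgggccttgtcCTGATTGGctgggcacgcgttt
Of the 11 class II genes, 8 had a promoter window of 300 bases in the RefSeq table. HLA-DRA, CIITA and CTSS had no entry. On either strand, CTGATTGG was in 3 of the 8 genes and in 3.97% of 35116 windows of that length, and CTGATGATG was in 3 of the 8 and in 0.271% of windows. HLA-DRB1 and HLA-DMA held both, out of 4 windows in all that did (0.0114%). CTGATGATG was written from the letters of HLA-DRB1, so that gene's match was fixed in advance and these shares are no test. HLA-DQB1, with CTGATTGG alone, was not called, whereas HLA-DPA1, HLA-DPB1, HLA-DQA1 and CD74 held neither motif and were called. A match is a description of letters and not of a site, and the 3 class II genes and B2M were picked for holding them.

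The class I pathway, which shows peptides of the cell's own proteins to CD8+ T cells, leaned the same way with smaller differences. Of 17 tested genes, 9 were higher in A375, 1 was higher in the libraries labelled SKBR3 and 7 were not called, with a median of 1.00. In the libraries labelled SKBR3 2 of the 17 were under 1 TPM, PSMB8 among them. The immunoproteasome subunit PSMB8 was at 52.6, 57.6 and 54.3 TPM in A375 and 0, 0.14 and 0 TPM in the libraries labelled SKBR3 (difference 5.74, SE 0.10), and its partner PSMB9 differed by 4.31. B2M, the light chain of class I, averaged 1837 ± 53.2 against 419 ± 20.9 TPM (SD, n = 3). Of the classical heavy chains, HLA-B differed by 0.71 and HLA-C by -0.97, and neither was called. HLA-F was the member higher in the libraries labelled SKBR3 (-1.38). NLRC5, the class I counterpart of CIITA, differed by 1.99.

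Interferon-stimulated genes and cytokines were higher in A375 for the most part. Of 27 tested interferon-stimulated genes, 18 were higher in A375 and 3 were higher in the libraries labelled SKBR3, with a median of 1.35, and 11 of the 27 were under 1 TPM in the latter. MX2, an antiviral GTPase, was at 71.7, 69.4 and 66.0 TPM in A375 and listed at 0 in the other 3 libraries. ISG20 differed by 5.27 and IFITM3, which restricts viral entry, by 4.57, whereas its relative IFITM1 differed by -2.15 and USP18, which dampens interferon signalling, by -1.02. Of 16 tested chemokines and cytokines, 13 were higher in A375 and 1 was higher in the libraries labelled SKBR3. As 13 of the 16 were under 1 TPM in the libraries labelled SKBR3, this count was largely fixed by the filter. The neutrophil chemokine CXCL8 averaged 128 TPM against 0.15 TPM, CXCL1 71.5 TPM against 0.297 TPM, and CCL2 50.8 TPM against a listing of 0.

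Genes known as transcriptional output of the MAPK cascade, which lies downstream of BRAF, were higher in A375 for the most part. Of 24 tested members, 19 were higher in A375, 2 were higher in the libraries labelled SKBR3 and 3 were not called, with a median of 3.29, and 6 of the 24 were under 1 TPM in the libraries labelled SKBR3. The feedback phosphatase DUSP6 was at 160, 149 and 145 TPM in A375 and 0.44, 0.34 and 0.42 TPM in the libraries labelled SKBR3 (difference 6.76, SE 0.07, limma adjusted p = 4.51e-09). SPRY4, a feedback inhibitor of receptor signalling, was at 58.4, 60.2 and 61.0 TPM against 0.07, 0.09 and 0.05 TPM (5.83, SE 0.08). The groups did not overlap for either feedback gene, as for 77.4% of all tested genes. FOSL1 of the AP-1 complex averaged 255 against 2.43 TPM, the ETS factor ETV4 121 against 1.78 TPM, PHLDA1 159 against 0.56 TPM and the cyclin CCND1 274 against 22.6 TPM. MYC went the other way, at 9.89, 11.4 and 9.99 TPM in A375 and 167, 170.5 and 167 TPM in the libraries labelled SKBR3 (-3.89, SE 0.06). EPHA4, a receptor of ephrins, differed by -1.22, and JUN, which is not on this list, was at 8.36 ± 0.354 in A375 against 212 ± 7.07 TPM (SD, n = 3). DUSP7 was not called (0.08, 95% interval -0.06 to 0.21).

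**Figure D3:**
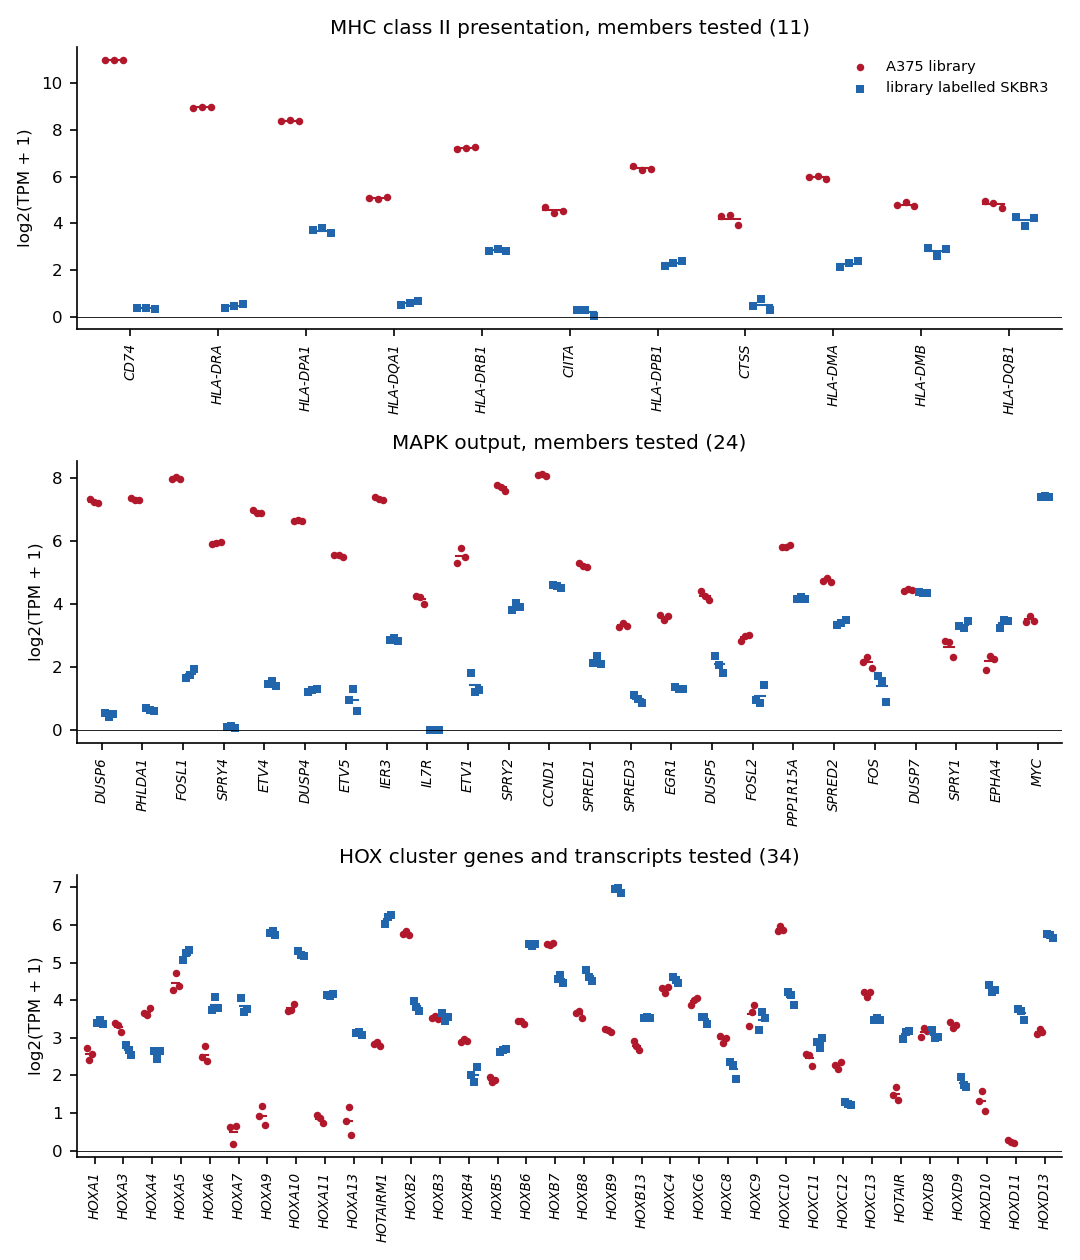
Values in each control library, as log2(TPM + 1), for the tested members of the MHC class II list, of the MAPK output list and of the 4 HOX clusters with their non-coding transcripts HOTAIRM1 and HOTAIR. A375 circles lie above the squares of the libraries labelled SKBR3 for all class II members, and MYC, EPHA4, HOXA9 and HOXD13 lie the other way.

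Dedifferentiated melanoma cells are known for a set of genes of the invasive state. Of 19 tested, 14 were higher in A375 and 3 in the libraries labelled SKBR3, with a median of 2.38, and 8 of the 19 were under 1 TPM in the latter. The list summed to 956 to 964 TPM in the A375 libraries and 300 to 307 TPM in those labelled SKBR3. In the siControl libraries of SK-Hep1, the remaining line of the series, it summed to 2365 to 2394 TPM, so a high sum was not particular to A375. The receptor kinase AXL was at 118, 117 and 116 TPM in A375 and 0.09, 0.16 and 0.11 TPM in the libraries labelled SKBR3 (difference 6.71, SE 0.07). TNC, the matrix protein tenascin C, averaged 193 against 0.647 TPM. JUN, F2RL1, a protease-activated receptor, and SOX9 were the 3 that were higher in the libraries labelled SKBR3, the last at 5.16 against 0.617 TPM. YAP and TEAD output, which rises with cell spreading, had 14 of 21 tested genes higher in A375 and 1 higher in the libraries labelled SKBR3, with 5 of the 21 under 1 TPM in the latter, led by IGFBP3 (134 against 0.0933 TPM) and MYOF (142 against 1.19 TPM). CCN1 and CCN2 belong to both lists and differed by 2.95 and 3.67.

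Mesenchymal and epithelial markers were mixed in both groups. VIM, the intermediate filament of mesenchymal cells, was high in both, at 2701, 2692 and 2701 TPM in A375 and 572, 557 and 560.2 TPM in the libraries labelled SKBR3 (difference 2.26, SE 0.02). KRT18 and KRT8, a keratin pair of simple epithelia, were also higher in A375, at 271 ± 3.63 against 19.5 ± 0.624 TPM and 30.7 ± 2.07 against 9.07 ± 0.508 TPM (SD, n = 3). Of 23 tested mesenchymal genes 12 were higher in A375 and 3 were higher in the libraries labelled SKBR3. Under 1 TPM were 5 of the 23 in the libraries labelled SKBR3 and 2 in A375. S100A4 averaged 456 against 2.22 TPM and SPARC, a matrix glycoprotein, 1413 against 36.9 TPM, while COL1A1 averaged 0.347 against 10.6 TPM. Among the transcription factors of epithelial to mesenchymal transition, SNAI1, TWIST2 and PRRX1 were higher in A375 (differences 3.07, 2.43 and 3.81), and SNAI2 was at 1.06, 1.33 and 1.56 TPM in A375 against 55.4, 60.1 and 55.4 TPM (-4.65, SE 0.10). Of the 9 factors tested, 4 were higher in A375 and 1 in the libraries labelled SKBR3, where 2 were under 1 TPM. Of 14 tested luminal breast genes, 7 were higher in A375 and 5 in the libraries labelled SKBR3, a split that held AP-2 factors on both sides: TFAP2C and TFAP2B were higher in A375 (4.18 and 4.67) and TFAP2A was higher in the libraries labelled SKBR3 (-1.67). Under 1 TPM were 2 of the 14 in A375 and 2 in the libraries labelled SKBR3. GATA3, a factor of luminal cells, was at 7.77 ± 1.18 TPM in the libraries labelled SKBR3 and 2.05 ± 0.556 TPM in A375 (SD, n = 3). Of 8 tested basal and squamous genes, 7 were higher in A375, with KRT14 at 20.0 TPM and listed at 0 in the other group, and DSC3 was higher in the libraries labelled SKBR3 (-2.41). As 6 of the 8 were under 1 TPM in the libraries labelled SKBR3, this count was largely fixed by the filter.

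Of 18 tested integrins, receptors of the matrix, 14 were higher in A375 and ITGA8 was the 1 higher in the libraries labelled SKBR3, with a median of 1.95, and 4 of the 18 were under 1 TPM in the latter. ITGB3, which pairs with the alpha-V chain, was at 68.5, 71.4 and 72.4 TPM in A375 and 0.08, 0.07 and 0.10 TPM in the libraries labelled SKBR3 (6.05, SE 0.08), and the laminin receptor chain ITGA3 differed by 4.88. Of 21 tested cadherin and junction genes, 5 were higher in A375 and 9 in the libraries labelled SKBR3. In A375 5 of the 21 were under 1 TPM, and in the libraries labelled SKBR3 4. The desmosome genes were on both sides: DSP averaged 27.1 against 2.08 TPM, DSG2 101 against 20.7 TPM, DSC2 17.2 against 0.92 TPM and JUP 19.7 against 1.90 TPM in the libraries labelled SKBR3 and A375, PKP3 was higher in A375 (14.9 against 0.08 TPM, difference 3.89), and PKP2 was not called (-0.33). The gap junction gene GJA1 was at 31.4, 34.1 and 30.5 TPM in the libraries labelled SKBR3 and listed at 0 in all 3 A375 libraries. CDH13 and CDH19 were at 67.6 and 38.2 TPM in A375 and listed at 0 in the other group, CDH2, N-cadherin, differed by 1.05, and CDH1, E-cadherin, was at 2.89, 2.58 and 2.01 TPM in the libraries labelled SKBR3 and 0 in A375. CTNNB1, which links cadherins to actin, was not called (-0.03, 95% interval -0.12 to 0.05). Collagens and laminins had 14 of 25 tested genes higher in A375 and 7 in the libraries labelled SKBR3, with COL9A3 (315 against 6.08 TPM) at one end and COL1A1 at the other. In A375 2 of these 25 were under 1 TPM, and in the libraries labelled SKBR3 5. Of 8 tested genes of the caveola coat, a list added after values were seen, 4 were higher in A375 and 2 in the libraries labelled SKBR3. CAVIN3, CAV1 and CAVIN1 were higher in A375 (6.67, 4.45 and 3.35), and the muscle members CAV3 and CAVIN4 were higher in the libraries labelled SKBR3 (-3.07 and -1.98). Under 1 TPM were 2 of the 8 in A375 and 1 in the libraries labelled SKBR3.

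Receptor tyrosine kinases were called in either direction in like numbers, 11 of 30 tested toward A375 and 10 toward the libraries labelled SKBR3. Under 1 TPM were 6 of the 30 in A375 and 6 in the libraries labelled SKBR3. A375 had more AXL, ERBB3 (154 against 4.64 TPM), the collagen receptor DDR2 (23.5 against 0.893 TPM), EPHA2 (3.22) and IGF1R (2.54). The libraries labelled SKBR3 had more of all 4 fibroblast growth factor receptor kinases: FGFR1 differed by -1.56, FGFR2 by -3.92, FGFR3 by -3.21 and FGFR4 by -2.30. FGFR2 was at 19.9, 21.6 and 20.2 TPM there and 0.82, 0.23 and 0.29 TPM in A375. EGFR was low in both, at 5.2 ± 0.10 and 4.25 ± 0.185 TPM (SD, n = 3), and was not called.

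HOX genes were called toward the libraries labelled SKBR3 more often than toward A375 in the A, B and D clusters. In the HOXA cluster 7 of 11 tested genes and transcripts were higher there and 1 in A375 (median -1.45), in HOXB 3 of 9 and 1 (-0.75), in HOXC 1 of 9 and 2 (0.49), and in HOXD 3 of 5 and 1 (-2.55). In A375, 4 of the 11 HOXA members and 1 of the 5 HOXD members were under 1 TPM. HOXA9 was at 54.7, 56.3 and 52.0 TPM in the libraries labelled SKBR3 and 0.90, 1.28 and 0.60 TPM in A375 (-4.86, SE 0.13). HOXA11 differed by -3.28, HOXB9 by -3.72, HOXD11 by -3.41 and HOXD13 by -2.55. In A375 the early gene HOXA4 (1.11), HOXB2 (1.94), HOXC10 (1.81) and HOXD9 (1.54) were higher. The non-coding transcripts HOTAIRM1 and HOTAIR were higher in the libraries labelled SKBR3 (-3.33 and -1.60). HOXC9 and HOXD8 were read in both groups, overlapped and were not called.

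The Notch pathway was listed after HES4 had been seen among the largest differences, so its count is a description only. Of 25 tested genes, 10 were higher in the libraries labelled SKBR3 and 6 in A375. In A375 6 of the 25 were under 1 TPM, and in the libraries labelled SKBR3 3. The 10 were HES4, HES1 (31.0 against 13.7 TPM), HES6, HEY1 (155 against 3.30 TPM), HEY2 and HEYL of the HES and HEY repressors, the feedback inhibitor NRARP (38.6 against 0.0233 TPM), the ligands JAG2 and DLL1, and the receptor NOTCH3. The 6 were the coactivators MAML2 and MAML3, the ligand JAG1, DTX1, which is itself known as a Notch target, DTX3 and the glycosyltransferase MFNG (2.94, 2.20, 1.52, 2.85, 1.83 and 1.09). The receptors NOTCH1 and NOTCH2 were not called (0.46 and 0.39). Wnt genes split as well, 9 of 25 toward A375, led by the secreted antagonists SFRP1 (142 against 0.15 TPM) and DKK1 (130.3 against 2.11 TPM), and 8 toward the libraries labelled SKBR3, with the Wnt targets AXIN2 (6.23 against 0.29 TPM), NKD2 and TCF7. Of the 25 Wnt genes, 5 were under 1 TPM in A375 and 2 in the libraries labelled SKBR3. In the TGF-beta list of 24, 10 were higher in A375 and 4 in the libraries labelled SKBR3, where 3 were under 1 TPM. The activin antagonist FST was at 236, 241 and 228 TPM against 1.2, 0.79 and 1.0 TPM. Its ligand chain INHBA averaged 90.2 against 0.217 TPM. The inhibitors of helix-loop-helix factors were divided: ID1 was higher in A375 (140 against 11.9 TPM), ID2 in the libraries labelled SKBR3 (184 against 3.03 TPM), and ID3 was not called (0.24).

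Among regulators of the cell cycle, CDKN2A, which encodes the inhibitors p16 and ARF, was at 7.14, 3.99 and 5.74 TPM in A375 and 381, 371 and 359 TPM in the libraries labelled SKBR3 (-5.84, SE 0.16). Its neighbour CDKN2B was listed at 0 in all A375 libraries and averaged 6.91 TPM in the others, while MTAP, also at 9p21, averaged 198 TPM in A375 against 60.3 TPM. CCND2 was listed at 0 in A375 and averaged 11.04 TPM in the others, the reverse of CCND1. RB1, the target of the cyclin D kinases, differed by 1.47. Of 44 tested cell cycle genes, 12 were higher in the libraries labelled SKBR3 and 4 in A375 (median -0.28), and the 12 held replication genes such as CDT1 (-2.14), MCM3 (-1.61) and CDC25A (-1.60). MKI67, a proliferation marker, was not called (-0.22). Of 25 tested p53 targets 10 were higher in A375 and 2, SESN2 and SPATA18, in the libraries labelled SKBR3. CDKN1A, the inhibitor p21, averaged 156 ± 4.88 against 18.6 ± 1.68 TPM (SD, n = 3), PHLDA3 differed by 3.56, and MDM2 (0.79) was not called. In the BCL2 family, 5 of 16 tested genes were higher in A375, 3 in the libraries labelled SKBR3 and 8 were not called. The 5 were MCL1 (1.63), BCL2L1 (1.48) and BCL2A1 (3.09), which oppose cell death, and BAX (1.00) and BOK (1.58), which promote it. The 3 were PMAIP1 (-3.01), BCL2L11 (-1.92) and HRK (-1.81), which promote it. BCL2 was low in both and not called.

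NRF2 targets, the antioxidant genes named in the series' question, were called toward A375 or not at all, with 1 exception: 17 of 32 tested were higher in A375, 1 was higher in the libraries labelled SKBR3, 14 were not called, and the median was 1.01, with 7 of the 32 under 1 TPM in the libraries labelled SKBR3. NQO1, a quinone reductase, was at 1286, 1236 and 1246 TPM in A375 and 4.34, 7.16 and 7.81 TPM in the libraries labelled SKBR3 (7.43, SE 0.18). FTH1 and FTL, the ferritin chains, averaged 5965 against 1042 TPM and 2654 against 551 TPM. TXNRD1, thioredoxin reductase, differed by 1.55, the cystine carrier SLC7A11 by 1.02, and AKR1C2 was listed at 0 in the libraries labelled SKBR3 and averaged 11.2 TPM in A375. GCLM and HMOX1 were not called (0.78 and 0.65), nor was KEAP1, which marks NRF2 for degradation (0.56). BLVRB was the member higher in the libraries labelled SKBR3 (-1.03).

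The ATF4 response, which cells switch on when amino acids are short, leaned the other way. Of 31 tested genes, 11 were higher in the libraries labelled SKBR3, 6 in A375 and 14 were not called (median -0.39). ATF4 was at 315, 314 and 316 TPM in A375 and 1069, 1069 and 1046 TPM in the libraries labelled SKBR3 (-1.75, SE 0.02). ASNS, asparagine synthetase, averaged 297 against 56.4 TPM, ATF3 72.6 against 11.6 TPM and PHGDH, the first enzyme of serine synthesis, 425 against 130 TPM. The carrier SLC7A5 went against these, at 422 TPM in A375 and 124 TPM in the libraries labelled SKBR3, and TRIB3 and PPP1R15A did so with differences of 1.42 and 1.64. In the siGCDH libraries the lean turned, with 8 of the 31 higher in A375 and 3 in those labelled SKBR3 (median 0.15).

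In lysine and tryptophan breakdown, the pathway of GCDH, 19 genes were tested: 3 were higher in A375, 6 in the libraries labelled SKBR3, and 10 were not called (median -0.27). AASS, the first enzyme of lysine breakdown, was not called (13.2 ± 0.99 against 13.9 ± 0.773 TPM, SD, n = 3), nor was ALDH7A1 (113 ± 7.45 against 112 ± 3.29 TPM, SD, n = 3). DHTKD1, which makes the glutaryl-CoA that GCDH uses, was at 18.1, 19.6 and 21.02 TPM in A375 and 53.7, 56.0 and 49.3 TPM in the libraries labelled SKBR3 (-1.39, SE 0.08). KYNU, kynureninase of tryptophan breakdown, was at 146, 151 and 140 TPM in A375 and 0.21, 0 and 0 TPM in the libraries labelled SKBR3 (7.11, SE 0.10), and the transaminases KYAT1 and KYAT3, which also use kynurenine, went the other way (-1.85 and -1.66). ETFDH, which passes electrons from GCDH to the respiratory chain, differed by -1.13, and ETFB by 1.14.

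Among genes of energy metabolism the share called differed by list. None of the 38 tested nuclear genes of oxidative phosphorylation was called (median -0.13, range -0.95 to 0.67), although all were at 5 TPM or more in both groups. Among the 13 mitochondrially encoded genes, MT-ND2 was higher in A375 (1.09), MT-ND6 was higher in the libraries labelled SKBR3 (-1.01), and 11 were not called. In the 28 tested cholesterol genes, 23 were not called. Among those called, SREBF1 was higher in A375 (2.58), and SQLE, INSIG1 and SC5D were higher in the libraries labelled SKBR3. Glycolysis and hypoxia genes had 9 of 31 higher in A375, 3 higher in the libraries labelled SKBR3 and 19 not called (38.7% called, against 34.7% of all tested genes), with the glucose carrier SLC2A1 at 220 against 34.5 TPM. The lactate carriers were exchanged: SLC16A3 averaged 15.1 TPM in A375 against 0.807 TPM, and SLC16A1 54.4 against 160 TPM. Reference genes were not all level. Of 18, GAPDH (1.94) and B2M (2.13) were higher in A375, HPRT1 (-1.71) was higher in the libraries labelled SKBR3, and 15 were not called, among them EEF1A1 (-0.06) and RPL13A (0.05).

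**Figure D4:**
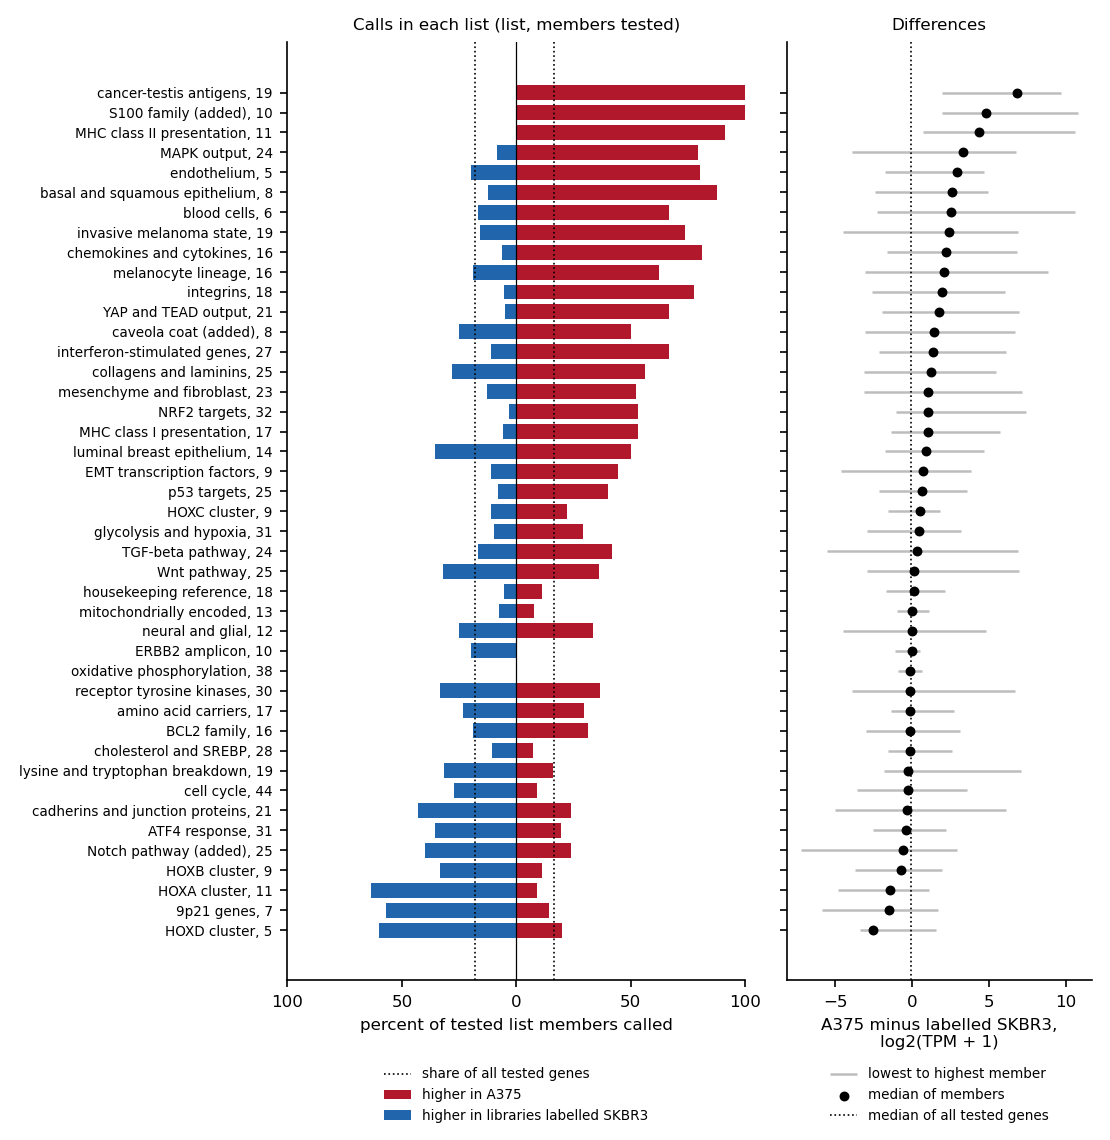
For each list with at least 5 tested genes, the left panel gives the percent of members called in either direction, with dotted lines at the shares of all tested genes, 16.5% and 18.2%. The right panel gives the median difference and the range from lowest to highest member, ordered by the median from cancer-testis antigens (6.79) to the HOXD cluster (-2.55), with a dotted line at the median of all tested genes (-0.10).

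Calls were spread unevenly over the chromosomes. On chromosome 22, 38.4% of 398 tested genes were higher in the libraries labelled SKBR3 and 9.80% in A375, with a median of -0.77. On chromosome 6 these shares were 32.1% and 11.2% (median -0.56) and on the X chromosome 33.3% and 19.3% (median -0.55). They were 26.9% and 14.1% on chromosome 10 (median -0.49) and 22.3% and 9.57% on chromosome 14 (median -0.38). Chromosome 8 leaned toward A375, with 23.9% higher there and 10.7% in the other group (median 0.36), as did chromosome 20 (median 0.30) and chromosome 15 (0.22). In the siGCDH libraries the medians of chromosomes 22, 6 and 8 were -0.93, -0.77 and 0.19. The copy number of these chromosomes was not measured here, and genes of a chromosome are not independent.

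**Figure D5:**
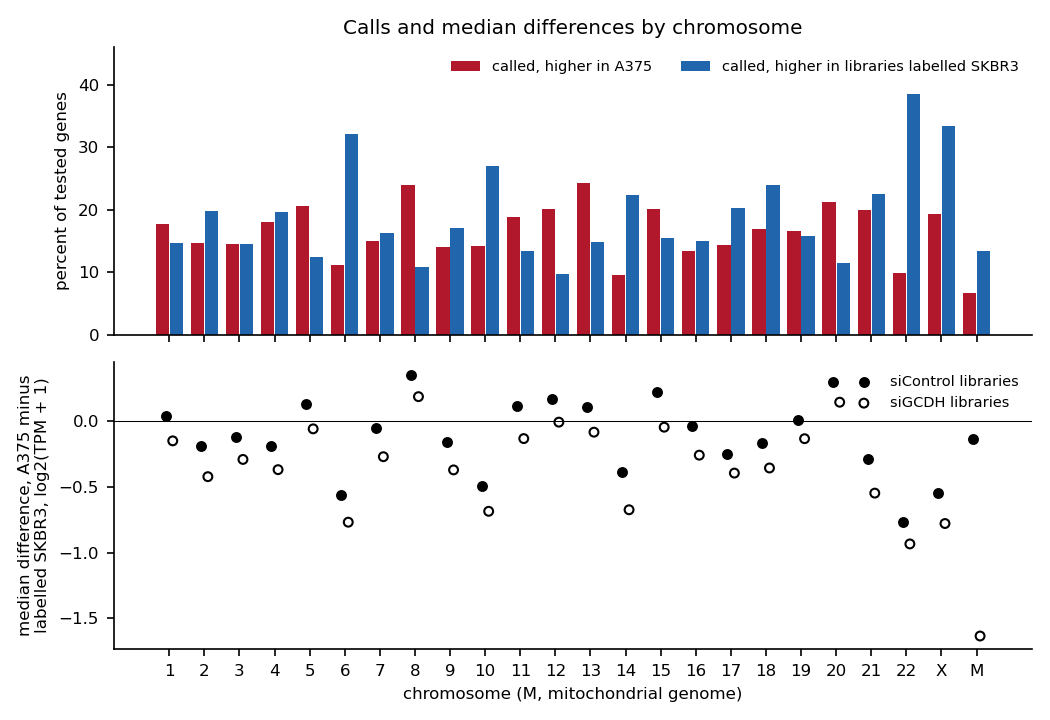
Upper panel, percent of tested genes of each chromosome called higher in A375 or in the libraries labelled SKBR3. Lower panel, median difference in the siControl libraries (filled) and the siGCDH libraries (open), on the log2(TPM + 1) scale: chromosome 22 is lowest among the nuclear chromosomes (-0.77) and chromosome 8 highest (0.36).

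The same contrast was fitted in the siGCDH libraries of both lines. There 6881 of the same 15870 genes (43.4%) were called, 2483 (15.6%) higher in A375 and 4398 (27.7%) higher in the libraries labelled SKBR3. With median scaling the split was 2822 and 3837, and with quantile normalization 3012 and 3454. The median over all genes was -0.29 there and -0.14 after median scaling. Of the 2616 genes higher in A375 with siControl, 1957 (74.8%) were called the same way with siGCDH and 8 the opposite way. Of the 2886 higher in the libraries labelled SKBR3, 2538 (87.9%) were called the same way and 4 the opposite way. All 24 of the largest differences were called the same way in the siGCDH libraries. The line difference itself moved with treatment for many genes: the interaction passed in 7962 genes (50.2%), and it was more positive with siControl in 5586 and more positive with siGCDH in 2376. After median scaling these numbers were 3701 and 3667, and after quantile normalization 3499 and 3569, where the order turned. In the mitochondrially encoded genes, 11 of 13 were higher in the siGCDH libraries labelled SKBR3 and 0 in A375 (median -1.56), against 1 and 1 with siControl.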

How the data were processed

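RNA sequencing libraries of 3 cell lines were used, 24 in 8 groups of 3, of which 6 enter the main comparison. The authors deposited TPM values, 1 column per library and 60504 genes. The tools were RSEM 1.3.1, STAR 2.7.0d and cutadapt 2.3 with the hg38 build, per the submitters' processing notes. Which annotation and strand setting were used is not given in the sources used here. Read totals cannot be had from TPM, so depth is unknown and counting intervals are not given. RSEM divides reads among near-identical copies.

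Values were taken as log2(TPM + 1) over genes that averaged 1 TPM or more in the 6 siControl libraries. Groups were compared with limma 3.58.1 (trend, Benjamini-Hochberg adjustment over 15870 genes, two-sided) in R 4.3.3. Genes with an adjusted p under 0.05 and a difference of at least 1 were called, and for the interaction, fitted on 12 libraries, the adjusted p alone was used. In simulated data on these 15870 genes, 73% of 100 changes of 1 and 94% of 100 changes of 2 passed the adjusted p. The other 15670 genes were left unchanged. In the data 75.1% of genes passed, so the simulated shares do not give the recovery of this comparison.

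Genes named are a panel of 15 markers, the 12 largest differences a direction (5 TPM or more in the higher group, no overlap), and up to 3 called members a direction of each of 43 lists, again at 5 TPM or more in the higher group. Other members are named for their role or to show both directions. The members and lists were chosen with earlier results of these data known, and 3 lists (Notch, S100, caveola) were added after values were seen. Positions are those of GENCODE 29 on GRCh38, and promoters those of RefSeq. Genes on the Y chromosome and XIST are not reported.

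Same-numbered libraries of the groups had deviations that correlated at -0.04, -0.01 and 0.01, so the numbers do not pair the samples. Alternatives were other pseudocounts and filters, other scalings, other limma settings, larger joint fits, a test against the fold limit, the replicate block, and leaving out each library.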

Additional observations from a re-analysis of the deposited data

Results flagged for a closer look

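The line difference was compared between treatments for 35 named genes, and in 21 of them the interaction passed (limma, adjusted p under 0.05). The interaction passed in 50.2% of all tested genes. Values are the line difference with siControl minus that with siGCDH, on the log2(TPM + 1) scale. It was more positive with siControl for S100B (1.62), PMEL (1.62), KRT18 (1.47), ERBB2 (1.25), HES4 (0.51), GPC3 (0.44) and THBS1 (0.42). It was more negative with siControl for TSC22D3 (-2.10), ID4 (-1.24), CA2 (-1.19), IL24 (-1.19), CD44 (-0.89), AXL (-0.82), CA8 (-0.56), MITF (-0.54), IL13RA2 (-0.52), UCHL1 (-0.45), IRS4 (-0.43), HLA-DRA (-0.40), SOX10 (-0.21) and VIM (-0.15). After median scaling 19 of the 21 kept their sign and passed, and HES4 and GPC3 did not. The line difference of ERBB2 changed sign with treatment, from 0.35 with siControl to -0.90 with siGCDH, where A375 averaged 21.8 TPM and the libraries labelled SKBR3 41.6 TPM.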

How the results depend on the processing

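With siControl, a filter at 5 TPM gave 3477 calls (1757 higher in A375 and 1720 in the libraries labelled SKBR3), a pseudocount of 5 gave 3158 (1659 in A375 and 1499 in the libraries labelled SKBR3), the test against the fold limit gave 1934 and 1847, and the adjusted p alone gave 11914 (5480 and 6434). With siGCDH these were 4344 (2600) at 5 TPM, 2877 in the libraries labelled SKBR3 with a pseudocount of 5, and 12612 (4792 and 7820) at the adjusted p alone. In the first 3 of these settings with siControl the larger number of calls was toward A375, the reverse of 2616 and 2886. A filter at 5 TPM tests fewer genes, and a pseudocount of 5 shrinks differences of low genes. Interactions split 3701 and 3667 with median scaling and 3499 and 3569 with quantile normalization, the last with the larger number on the other side. Leaving out each library in turn gave 5477 to 5528 calls with siControl, 6825 to 6882 with siGCDH and 7397 to 7632 interactions, and -0.16 to -0.05 for GCDH. The replicate numbers did not pair the samples, and the fit with the replicate block gave 5530 calls. No other alternative moved these counts by more than 1.5 times. No tested gene of the marker panel or of the 24 largest differences changed sign. Of 644 alternative values of these genes, 633 kept their side of the threshold, 8 lost it (EPCAM and PMEL with a pseudocount of 5 or the test against the fold limit, and NFE2L2) and 3 gained it (ERBB2 and MITF). For the other list members named above the alternatives were not tallied, so their calls close to the fold limit may not hold in each setting. Depth is unknown, so values near 0 cannot be told from undetected transcripts.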

Other observations

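The S100 family of calcium-binding proteins, listed after S100A6 had been seen, had all 10 tested members higher in A375, with a median of 4.78. In the libraries labelled SKBR3 5 of the 10 were under 1 TPM and passed the filter of 1 TPM over the 6 libraries only through A375, so the count was in part fixed by the filter. The list summed to 4595 to 4976 TPM in the A375 libraries and 436 to 497 TPM in those labelled SKBR3. S100A16 was at 313, 292 and 284 TPM in A375 and 1.16, 0.95 and 0 TPM in the libraries labelled SKBR3. S100A10 and S100A11 were read in both, with differences of 2.05 and 2.04.

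Most hepatocyte and endothelial markers did not pass the filter, whereas most neural ones did. Of 18 hepatocyte genes 16 were not tested, with SERPINA1, alpha-1-antitrypsin, at 5.05 TPM in A375 and listed at 0 in the libraries labelled SKBR3. The 2 tested hepatocyte genes were both under 1 TPM in the libraries labelled SKBR3. Of 15 endothelial genes 5 were tested, 4 of them higher in A375: ENG and ROBO4 averaged 51.4 and 10.5 TPM there, and EGFL7 was higher in the libraries labelled SKBR3 (34.3 against 9.18 TPM). As 3 of the 5 were under 1 TPM in the libraries labelled SKBR3, this count was largely fixed by the filter. The endothelial gene ERG was listed at 0 in both groups. The 20 neural genes summed to 390 to 404 TPM in A375 and 104 to 111 TPM in the libraries labelled SKBR3, and 12 were tested. Of these 12, 4 were higher in A375, led by L1CAM and TUBB3 (4.83 and 4.77), and 3 were higher in the libraries labelled SKBR3, namely NEFM (24.9 against 0.127 TPM), SYP (13.01 against 1.28 TPM) and OLIG2 (5.84 against 2.01 TPM). EMX2, a homeobox factor of the kidney and brain, averaged 8.03 TPM in the libraries labelled SKBR3 and was listed at 0 in A375.

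Of 17 tested carriers of amino acids, 5 were higher in A375, 4 were higher in the libraries labelled SKBR3 and 8 were not called, with a median of -0.15. Among them SLC1A4 (2.69) and SLC1A1 (2.32) were higher in A375, and SLC43A2 (-1.36), SLC7A2 (-1.32) and SLC1A3 (-1.19) were higher in the libraries labelled SKBR3.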
